A study of Saccharomyces cerevisiae with 15 samples.

Results

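The effect of DNase I was examined on top of MnCl2, the divalent cation it was given with, in the lysate of wild-type *Saccharomyces cerevisiae*. The comparison was taken from the design of the series: 3 libraries of MnCl2 + DNase I were set against 3 libraries of MnCl2, so 6 of 15 libraries entered it, at all 6858 positions of the 35S ribosomal DNA (rDNA) gene. The libraries were made by native elongating transcript sequencing (NET-seq), in which RNA is purified together with RNA polymerase I (Pol I) and the 3′ end of each RNA is read as the last nucleotide the polymerase had added. Both groups were the same wild-type strain, in which the Pol I subunit Rpa135 carries His and HA tags, grown in liquid culture and broken while frozen. The lysates of both groups received MnCl2 to 10 mM, stood on ice for 20 minutes, then received EDTA to 5 mM and stood on ice for 30 minutes more before Pol I was immunoprecipitated. The MnCl2 + DNase I lysates also received DNase I at 100 U/mL after the MnCl2, and their libraries are called the DNase I libraries here. The labels do not say whether 1 lysate was divided between treatments, nor whether replicates were separate cultures, so the p-values measure the spread between these libraries, which may be technical. No library had DNase I without MnCl2, so the comparison holds only in the presence of MnCl2 and its incubation.

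DNase I cuts DNA and leaves RNA, and in a NET-seq lysate it acts on the DNA template to which elongating polymerases are bound. Pol I transcribes a single long precursor that is cut and trimmed into the 18S, 5.8S and 25S ribosomal RNAs (rRNAs). The external spacers (ETS1 and ETS2) and internal spacers (ITS1 and ITS2) are removed and degraded, whereas rRNA accumulates in ribosomes, so a 3′ end inside or at the edge of an rRNA may belong to finished rRNA that was carried along. In ETS2 the RNase III enzyme Rnt1 cuts a stem-loop while the polymerase is still transcribing, and Pol I stops further downstream, near the T1 terminator, where Reb1 and Nsi1 bind DNA.

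Occupancy was given as CPM, the reads at a position scaled to a fixed total of reads over the 35S gene up to T1, and positions were numbered from the transcription start. The gene lies on the minus strand of chromosome XII at XII:460712-467569 (R64, RDN37-2). ETS1 spanned positions 1 to 700, 18S 701 to 2500, ITS1 2501 to 2861, 5.8S 2862 to 3019, ITS2 3020 to 3251, 25S 3252 to 6647 and ETS2 6648 to 6858. The MnCl2 libraries held 2835831 to 4727688 reads and the MnCl2 + DNase I libraries 3513707 to 4936279, and 1 read was worth 0.203 to 0.353 CPM. Spacers took 44857 to 66782 of these reads with MnCl2 and 39321 to 52376 with DNase I. The MnCl2 libraries differed more among themselves than the DNase I libraries did. At the 5328 positions with a mean of at least 10 CPM, the median SD of log2(CPM + 1) was 0.14 in the MnCl2 group and 0.10 in the DNase I group. MnCl2 replicate 1, the library with the fewest reads, lay apart. Its median absolute log2 difference was 0.199 and 0.207 from MnCl2 replicates 2 and 3, which differed by 0.0959. Between DNase I libraries it was 0.0982 to 0.131.

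The largest change that passed the test lay 15 nucleotides after the 3′ end of 25S, so the RNA sequence around this end is shown first, 5′ to 3′, with the ends of 18S and 5.8S for comparison, as given by the deposited base column. All bases matched the R64 sequence. Capitals mark 3 positions at each end that were listed at 0 in all 15 libraries of the series.
18S end, positions 2486 to 2515 (XII:465055-465084): gcggaaggaucauUAAagaaauuuaauaau
5.8S end, positions 3005 to 3034 (XII:464536-464565): guuugagcgucauUUCcuucucaaacauuc
25S end, positions 6633 to 6662 (XII:460908-460937): uguugucugauuugUUUuuuauuucuuucu
The next sequence continues from the last of these into ETS2. Its capitals mark the 5 adjacent positions that fell with DNase I, and the 35 positions after them are annotated in the deposited table as the residues cleaved by Rnt1.
ETS2, positions 6650 to 6700 (XII:460870-460920): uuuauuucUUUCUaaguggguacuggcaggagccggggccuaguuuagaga

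Per position, 16 of 6725 positions passed the test (0.238% of those above 0 in at least 3 libraries; limma, Benjamini-Hochberg adjusted p-value under 0.05). Of these, 12 fell with DNase I (0.178%) and 4 rose (0.0595%). At an unadjusted p-value under 0.05 there were 1007 lower and 373 higher positions. The groups did not overlap at 1300 positions that were lower (19.3%) and at 488 that were higher with DNase I (7.26%), and the median log2 change over all positions was -0.07. The direction of the calls depended on the scaling, since the CPM of each library add up to a fixed total. Scaling by the median ratio of positions gave 15 higher and 8 lower of 23 calls, with 854 higher and 790 lower positions without overlap. Scaling to the spacer sum gave 2 higher and 3 lower of 5 calls in spacers, and scaling without the mature 3′ ends, chosen after seeing the data, gave 11 higher and 12 lower of 23. The number of calls also depended on the fit. With a replicate block 4 positions were called, none of them higher, and 0 were called without the filter on low values, without an intensity trend or with all 15 libraries in 1 limma fit (1272, 1148 and 717 at an unadjusted p-value under 0.05). It turned on single libraries too. When MnCl2 replicates 1, 2 and 3 were left out in turn, 218, 8 and 181 positions were called, and when DNase I replicates were, 2 each time.

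The largest change was a run of 5 adjacent positions in ETS2, 6658 to 6662, directly before the stretch marked as cleaved by Rnt1. At position 6662 (XII, 460908), 15 nucleotides after the end of 25S, the MnCl2 libraries had 214, 117 and 159 CPM and the DNase I libraries 51.5, 57.7 and 57.9 CPM. At the neighbouring position 6661 they had 208, 125 and 167 CPM against 53.5, 62.9 and 65.6 CPM. All 3 DNase I libraries lay at less than any MnCl2 library at these positions, and they differed little from each other, while MnCl2 replicate 2 was the lowest of its group. The log2 change was -1.49 ± 0.16 (SE, n = 3 and 3) at 6662 and -1.42 ± 0.15 at 6661 (limma adjusted p-value 0.00032 at each). These values rested on 485 to 751 reads per MnCl2 library and 181 to 286 reads per DNase I library at 6662.

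The other 3 positions of the run had smaller changes. Position 6660 had 80.4, 53.7 and 77 CPM with MnCl2 and 31.0, 32.8 and 34.0 CPM with DNase I (log2 change -1.06, limma adjusted p-value 0.00834). Position 6659 had 57.1, 38.2 and 53.3 against 27.0, 26.9 and 25.5 CPM (log2 change -0.86, limma adjusted p-value 0.0345). Position 6658 had 33.1, 25.2 and 30.0 against 12, 14.6 and 16 CPM (log2 change -1.0, limma adjusted p-value 0.0335). None of these 3 positions overlapped between the groups. The run as a whole held 30.9%, 24.6% and 28.0% of all ETS2 occupancy in the MnCl2 libraries and 15.4%, 16.3% and 17.1% in the DNase I libraries. Over the alternatives tried, positions 6661 and 6662 stayed past the threshold in 14 of 17 and below 0 in 17 of 17. They were no longer called without the filter on low values (adjusted p-value 0.166), with all 15 libraries in 1 limma fit (0.341), or without the intensity trend (0.114). Positions 6658, 6659 and 6660 were called in 9, 8 and 11 of 17 alternatives, and all 3 were lost without any 1 of the DNase I replicates. Positions 6658 and 6659 were also lost with a replicate block (limma adjusted p-value 0.0662 at each) and with spacer-sum scaling (0.239 and 0.334).

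**Figure D1:**
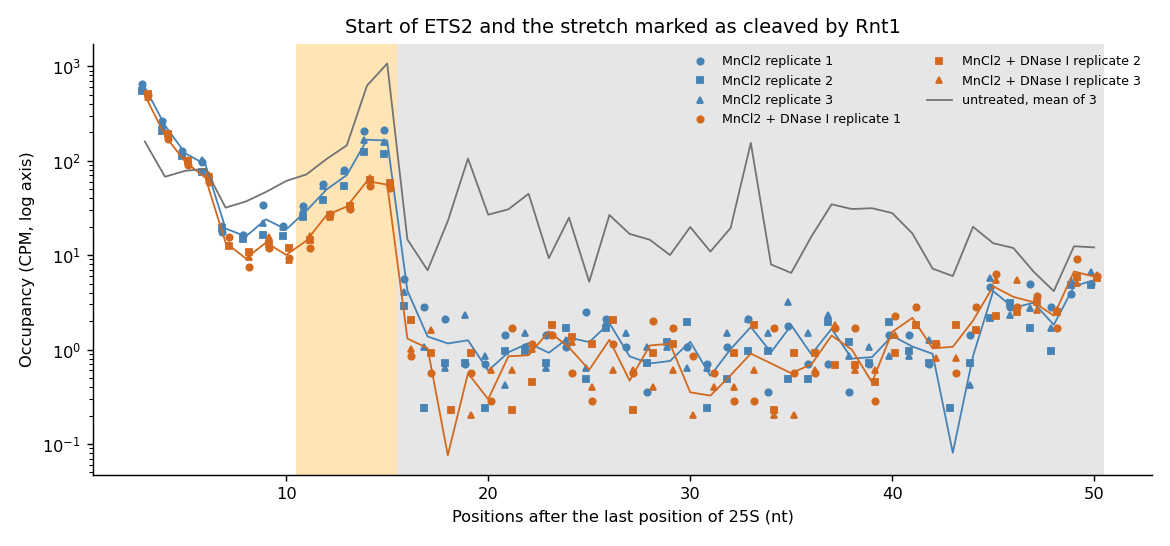
Occupancy in CPM (log axis) against the distance in nucleotides from the last position of 25S, per library (points, with circles, squares and triangles for replicates 1, 2 and 3) and as group means (lines); libraries at 0 have no point. The yellow band marks positions 6658 to 6662 and the grey band the Rnt1 stretch, positions 6663 to 6697. In the yellow band every DNase I library lies below every MnCl2 library, and the grey line of untreated means lies above both groups.

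The lower values in ETS2 were not limited to the 5 called positions. From 6650 to 6663, 14 adjacent positions were lower in all 3 DNase I libraries without overlap. Just inside the Rnt1 stretch the levels dropped steeply in both groups, to 5.64, 2.90 and 4.02 CPM with MnCl2 and 0.854, 2.05 and 1.01 CPM with DNase I at position 6663. Summed over the 35 positions of the stretch, occupancy was 61.4, 45.0 and 61.8 CPM with MnCl2 and 60.6, 49.5 and 49.8 CPM with DNase I. The groups overlapped there, and the share of the stretch differed by a log2 value of -0.06 with a pooled SD of 0.22 (exact permutation p = 0.8). Untreated libraries, which were outside the comparison and are given without a test, held 1873 to 2266 CPM over positions 6658 to 6662. This compares with 359 to 593 CPM with MnCl2 and 175 to 199 CPM with DNase I. The CaCl2 libraries, also outside the comparison, spanned 514 to 3206 CPM there and the CaCl2 + MNase libraries 2189 to 2744 CPM, so these groups overlapped. The number of 3′ ends made by Rnt1 and the number held in an elongating polymerase cannot be told apart at these positions.

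Just upstream, at the 3′ end of 25S, 1 position rose. Position 6642 (XII, 460928) was the only called position within 10 nucleotides of a mature end on the rRNA side. It had 423, 374 and 487 CPM with MnCl2 and 614, 639 and 641 CPM with DNase I (log2 change 0.57 ± 0.10, SE, limma adjusted p-value 0.0345). Position 6642 was called in 7 of 16 alternatives. Position 6646, the last one above 0 in 25S and the highest position of the gene in all 6 libraries, had 15301, 13121 and 15115 CPM against 16437, 17703 and 18896 CPM. The DNase I libraries lay above all MnCl2 libraries at 6646, but the change did not pass the test (log2 change 0.29, limma adjusted p-value 0.604). Of 9 positions tested among the last 10 of 25S, 6 were higher without overlap (66.7%, against 7.26% of all positions) and 0 were lower. The share over all positions is not matched for level, and several of these positions had means above 1000 CPM. Away from the mature 3′ ends, 54.3% of 46 rRNA positions with a mean of at least 1000 CPM were also higher without overlap. Among all rRNA positions with 100 to 1000 CPM, 10.0% were. Right across the stretch at 0, position 6650 had 653, 546 and 596 CPM with MnCl2 and 496, 514 and 474 CPM with DNase I, also without overlap and in the other direction (log2 change -0.27, limma adjusted p-value 0.15). Scaled to the spacer sum, this change was 0.06. All 8 tested positions among the first 10 of ETS2 were lower without overlap, against 19.3% of all positions and 12.7% of spacer positions. Neither share is matched for level. Relative to the spacer sum, the share of these first 10 positions hardly changed.

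At the 3′ end of 18S no position was called on either side. Inside 18S, position 2496 had 2197, 2300 and 3211 CPM with MnCl2 and 3959, 4138 and 4429 CPM with DNase I, the groups not overlapping (log2 change 0.72, limma adjusted p-value 0.0698; it was picked after its values were seen). Position 2498, the highest of 18S, had 9246, 10826 and 15020 CPM against 12157, 12759 and 14684 CPM, with overlap. Inside ITS1, position 2503 had 1091, 676 and 797 CPM against 723, 668 and 488 CPM and position 2507 had 26.1, 23.0 and 26.2 CPM against 17.4, 19.8 and 16 CPM. Of the pair, only 2507 had no overlap, and neither passed the test (limma adjusted p-values 0.158 and 0.129). MnCl2 replicate 1 was the highest library at 2503, and the other 2 MnCl2 libraries lay close to the DNase I libraries. Among 9 tested positions in the first 10 of ITS1, 2 were lower without overlap (22.2%), which is near the 19.3% of all positions. Over spacer positions it was 12.7%, and neither share is matched for level. Among 8 tested positions in the last 10 of 18S, 2 were higher without overlap (25%). This compares with 7.26% of all positions, and with 54.3% of rRNA positions of at least 1000 CPM away from the mature 3′ ends.

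At the 3′ end of 5.8S the spacer side was lower at several positions, none of them called. Trimming of a 3′ extension by exonucleases is the last step in making this end, and the extended form ends within a few nucleotides of it. Position 3025 (XII, 464545), 6 nucleotides into ITS2 and the highest position of that spacer, had 1766, 1265 and 1412 CPM with MnCl2 and 984, 1075 and 993 CPM with DNase I. The groups did not overlap, and the change was -0.53 ± 0.13 on the log2 scale (SE), short of the threshold (limma adjusted p-value 0.0716). Position 3026 had 530, 381 and 427 CPM against 305, 324 and 332 CPM, and position 3031 had 13.4, 12.3 and 12.7 CPM against 7.68, 8.20 and 9.72 CPM. Both lay apart without passing the test (log2 changes -0.46 and -0.54). On the rRNA side, position 3017 had 2520, 2298 and 2902 CPM against 2538, 2831 and 2758 CPM, with overlap. Of 9 tested positions in the first 10 of ITS2, 4 were lower without overlap (44.4%). This share was 19.3% over all positions and 12.7% over spacer positions, neither matched for level. Of 8 tested positions in the last 10 of 5.8S, 2 were higher without overlap (25%, against 7.26%). The 7.26% is not matched for level, and the share was 54.3% for rRNA positions of at least 1000 CPM away from the mature 3′ ends.

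**Figure D2:**
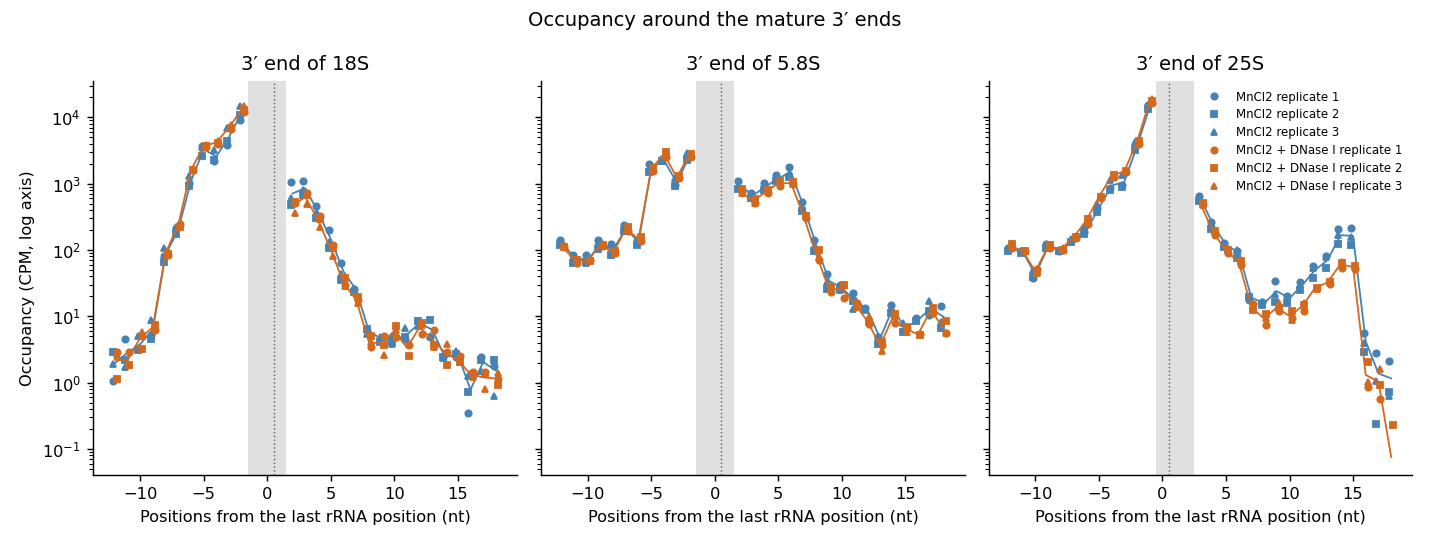
Occupancy in CPM (log axis) against the distance in nucleotides from the last rRNA position (dotted line at the boundary) for 18S, 5.8S and 25S, per library (points) and as group means (lines). The grey bands are the positions at 0 in all 15 libraries. From 11 to 15 nucleotides in the 25S panel the DNase I libraries lie below the MnCl2 libraries, with 51.5, 57.7 and 57.9 against 214, 117 and 159 CPM at 15.

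Peaks in the middle of the internal spacers had no called position. ITS1 is cut at a site called A2, which separates the 18S precursor from the rest, and ITS2 is cut at a site called C2; the deposited annotation marks neither. These peaks were picked after their values were seen, and capitals mark their positions.
ITS1, positions 2693 to 2722 (XII:464848-464877): uaaaaccguuucAAUACAACacacugugga
ITS2, positions 3143 to 3172 (XII:464398-464427): aaguacggucguuuUAgguuuuaccaacug
The highest position of the ITS1 peak, 2710, had 268, 274 and 318 CPM with MnCl2 and 269, 272 and 243 CPM with DNase I (log2 change -0.13, limma adjusted p-value 0.482). Position 2708 had 102, 110 and 168 CPM against 157, 160 and 148 CPM (log2 change 0.33, limma adjusted p-value 0.222). The groups overlapped at both. At the downstream edge of the peak the groups did not overlap, with 93.8, 81.7 and 88.4 CPM against 71.2, 62.4 and 59.2 CPM at 2711 (log2 change -0.45, limma adjusted p-value 0.0744). In ITS2, position 3158 had 55.7, 50.3 and 50.8 CPM against 41.6, 54.0 and 39.5 CPM, with overlap.

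Among the spacers, only 1 position outside ETS2 was called. Position 78 (XII, 467492), in the early part of ETS1 where a G follows a run of U, had 14.5, 14 and 14.4 CPM with MnCl2 and 5.41, 5.92 and 7.70 CPM with DNase I. The groups did not overlap (log2 change -1.07 ± 0.20, SE, limma adjusted p-value 0.0345), on 41 to 68 reads per MnCl2 library and 19 to 38 per DNase I library. Untreated libraries, outside the comparison and without a test, had 202 to 243 CPM there. Position 78 was called in 8 of 17 alternatives. It was not called with spacer-sum scaling (log2 change -0.77, limma adjusted p-value 0.308), without MnCl2 replicate 2, or without any 1 of the DNase I replicates (limma adjusted p-values from 0.0766 to 0.183 over these libraries). Nor was it with a replicate block, without the filter on low values, with all 15 libraries or without the intensity trend (limma adjusted p-values from 0.0662 to 0.398).
ETS1, positions 68 to 88 (XII:467482-467502), with position 78 in capitals: uuauguuuuuGuaaauggccu
The highest position of ETS1 with MnCl2 was 107, at 19.0, 22.5 and 50.6 CPM against 26.5, 23.9 and 21.3 CPM, where MnCl2 replicate 3 stood apart and the groups overlapped. Without MnCl2 replicate 3 the log2 change at 107 was 0.19, and with all libraries it was -0.22. The highest log2 change of any position tested was at 232 in ETS1, with 5.64, 1.45 and 5.71 CPM against 9.96, 10.5 and 10.1 CPM, on 6 to 27 reads per MnCl2 library and 35 to 50 per DNase I library. It did not pass the test (log2 change 1.23, limma adjusted p-value 0.0716), and it was picked after its values were seen.

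The remaining called positions lay inside the rRNA genes, where reads from finished rRNA were not removed. They are shown with 10 nucleotides on each side and the called position in capitals, first those that fell and then those that rose, so that the bases around them can be compared.
18S, 1306 and 1309 (XII:466251-466274): cguauauuaaAguUguugcaguua
18S, 2320 (XII:465240-465260): gauuacguccCugcccuuugu
25S, 3579 (XII:463981-464001): aagcuaaauaUuggcgagaga
25S, 4690 (XII:462870-462890): gugcagaucuUggugguagua
25S, 6058 (XII:461502-461522): ccagaaaaguUaccacaggga
25S, 3457 (XII:464103-464123): ggaacaggacGucauagaggg
25S, 4966 (XII:462594-462614): ucaccccggaAuugguuuauc
25S, 6317 (XII:461243-461263): uuugcggcugUcugaucaggc
Position 6058 had the lowest adjusted p-value among them, with 176, 170 and 162 CPM with MnCl2 and 110, 112 and 104 CPM with DNase I (log2 change -0.63, limma adjusted p-value 0.00971). The other 5 that fell had log2 changes from -0.65 at 3579 to -0.54 at 1306, and the 3 that rose had changes from 0.54 at 4966 to 0.67 at 3457. Position 3457 had 32.4, 35.3 and 37.9 CPM against 58.1, 58.3 and 53.7 CPM, and position 4966 had 463, 385 and 421 CPM against 556, 667 and 619 CPM. None of these 9 positions overlapped between the groups. Over 16 alternatives, 6058 was called in 10, 3579 in 9 and the others in 6 or 7. No position that rose was called with a pseudocount of 5 CPM, with a replicate block or without any 1 of the DNase I replicates. Over all 16 calls, the last base was U at 8 of 12 positions that fell and at 1 of 4 that rose. Of these 8 positions, 4 belong to the adjacent run in ETS2. U was the base at 33.0% of all spacer positions and 26.6% of all rRNA positions.

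The share of positions whose groups did not overlap also differed by the last base. In the rRNA genes, 27.2% of positions ending in U were lower without overlap, against 21.6% of those ending in C, 19.6% in G and 15.9% in A. Positions that were higher without overlap made up 6.84% of those ending in U, 7.84% in C, 8.28% in G and 11% in A. The order was kept under median-ratio scaling, with 16.2% of U positions and 8.37% of A positions lower. In the spacers, 18% of U positions were lower without overlap, against 11.5% of C, 10.8% of A and 8.46% of G. Positions are not replicates of a condition, so these shares are given as descriptions without a test. By amount, spacer occupancy ending in U was 40.3% ± 0.602 with MnCl2 and 39.1% ± 1.07 with DNase I (SD, n = 3), and the groups overlapped for every base (exact permutation p from 0.3 to 0.8, adjusted over 4 bases 0.8).

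In the rRNA genes, the direction of the positions without overlap also differed with their level. Over all positions, 7.26% were higher and 19.3% were lower without overlap. Among 59 positions of the rRNA genes with a mean of at least 1000 CPM, 31 were higher without overlap (52.5%) and 1 was lower, with a median log2 change of 0.23. Leaving out those within 10 nucleotides of a mature 3′ end, 25 of 46 were higher and 1 was lower. Among 2066 rRNA positions with a mean of 10 to 100 CPM, 109 were higher (5.28%) and 493 were lower (23.9%), with a median of -0.11. The shares at this level lay near those over all positions. In the spacers, no such turn was seen. There 149 of 1303 positions under 10 CPM were lower (11.4%) and 31 were higher (2.38%). Between 10 and 100 CPM 17 of 55 were lower (30.9%), and between 100 and 1000 CPM 8 of 16 (50%), with 0 higher at both levels. At 1000 CPM or more, 1 of 2 was lower and 0 were higher. The lower positions between 100 and 1000 CPM were 6650, 6651, 6652, 6661 and 6662 in ETS2, and 3022, 3023 and 3026 in ITS2. All lay shortly after a mature 3′ end, as did 3025, the lower position of at least 1000 CPM. Those lower between 10 and 100 CPM included 6653 to 6660 in ETS2. Counts without these positions were not made for spacers, so an effect of level apart from location was not tested there. Under median-ratio scaling 37 of the 59 high rRNA positions were higher and 1 was lower. The share of each library in its 10 highest positions was 5.01%, 5.27% and 6.18% with MnCl2 and 5.71%, 6.52% and 6.66% with DNase I, with overlap.

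**Figure D3:**
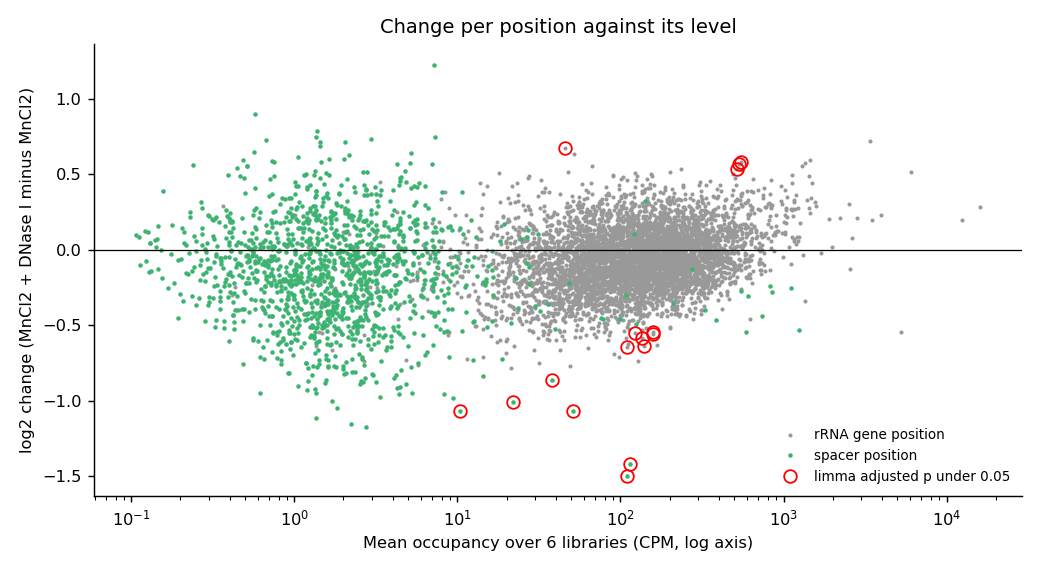
The log2 change (MnCl2 + DNase I minus MnCl2, on log2(CPM + 1)) of each of 6725 positions against its mean occupancy over 6 libraries in CPM (log axis), for rRNA gene and spacer positions, with the 16 called positions circled. Positions 6661 and 6662 lie lowest, at -1.42 and -1.49, and the rRNA positions above 1000 CPM lie mostly above 0.

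By region, the spacer shares were lower with DNase I, but no share passed its test. The share of 35S occupancy in ETS2 was 0.192%, 0.146% and 0.174% with MnCl2 and 0.114%, 0.120% and 0.116% with DNase I. ITS2 held 0.796%, 0.618% and 0.684% against 0.533%, 0.585% and 0.551%, and ETS1 held 0.136%, 0.129% and 0.181% against 0.128%, 0.116% and 0.127%. The groups did not overlap in these 3 spacers, with log2 differences of -0.54 in ETS2 (pooled SD 0.14), -0.32 in ITS2 (0.14) and -0.25 in ETS1 (0.19). In ITS1 they overlapped, at 0.458%, 0.314% and 0.374% against 0.344%, 0.312% and 0.267% (log2 difference -0.30, pooled SD 0.23). Without MnCl2 replicate 3 the difference in ETS1 was -0.10, and without MnCl2 replicate 1 that in ITS1 was -0.16. Without positions within 10 of an rRNA end the difference was -1.03 for ETS2, -0.21 for ITS2 and -0.09 for ITS1. The 18S share was 32.5% ± 0.523 and 32.4% ± 0.361, the 5.8S share 3.83% ± 0.249 and 3.79% ± 0.0546, and the 25S share 62.2% ± 0.958 and 62.7% ± 0.290 (SD, n = 3), all with overlap.

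Each of these shares was compared by an exact two-sided permutation test, in which 3 against 3 libraries cannot give a p-value under 0.1. Of 20 regions and stretches compared, 9 were lower and 1 was higher without overlap, each at exact p = 0.1 and 0.2 after Benjamini-Hochberg adjustment over the 20, so none passed the threshold. Several share positions with each other. The share that was higher was that of the 20 positions before the Rnt1 stretch, at 2.26%, 1.94% and 2.34% against 2.42%, 2.61% and 2.73%. It holds both the last positions of 25S and the start of ETS2, and without positions within 10 of an rRNA end its log2 difference was -1.29 in place of 0.25. Relative to the spacer sum in place of the whole gene, the log2 difference was -0.20 in ETS2. In the other spacers it was above 0, at 0.08 (ETS1), 0.03 (ITS1) and 0.01 (ITS2).

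**Figure D4:**
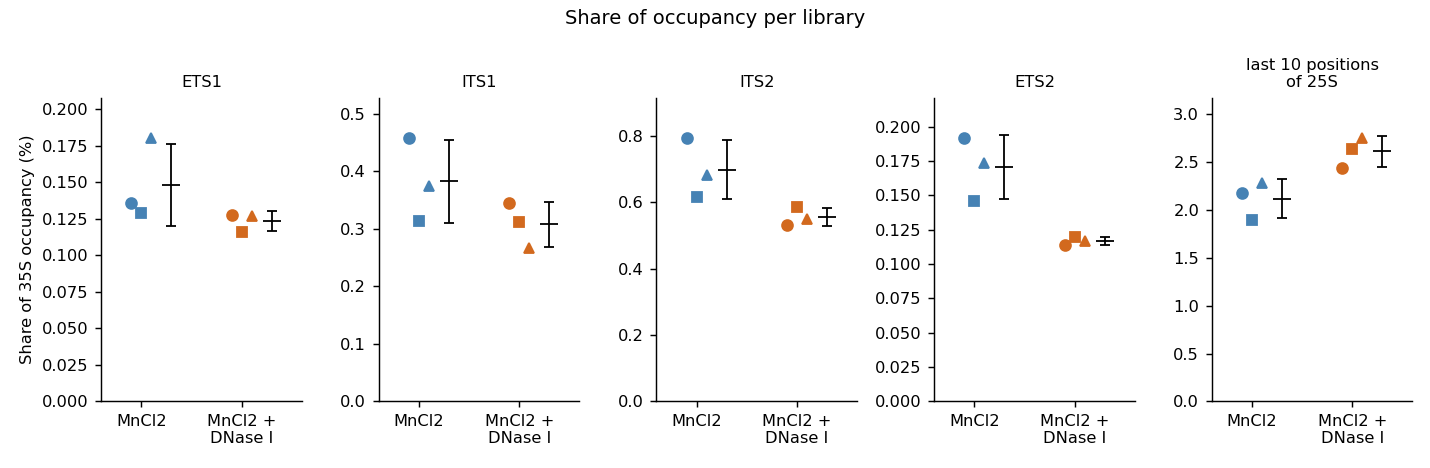
Share of 35S occupancy in percent (vertical axes start at 0 and differ between panels) in each spacer and in the last 10 positions of 25S. Each point is a library, with circles, squares and triangles for replicates 1, 2 and 3, and the bar is the mean ± SD of 3 libraries. ETS2 shows the DNase I libraries at 0.114% to 0.120%, below all MnCl2 libraries, and the end of 25S shows them at 2.44% to 2.75%, above all MnCl2 libraries.

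Within ETS1, positions 1 to 350 had a log2 difference of -0.24 and positions 351 to 700 of -0.26. The first 100 positions, next to the promoter, held 0.0144%, 0.0106% and 0.0144% with MnCl2 and 0.0108%, 0.00927% and 0.00983% with DNase I, with overlap. The occupancy-weighted mean position in ETS1 was 340.0 ± 1.64 with MnCl2 and 340.3 ± 1.69 with DNase I (SD, n = 3), and the groups overlapped in all 4 spacers (adjusted exact p from 0.533 to 0.6). The 10 positions before 18S, 5.8S and 25S overlapped between the groups as well.

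In windows of 100 positions, 1 of 69 passed the test (1.45%; limma adjusted p-value under 0.05), and it lay at the far end of the gene. The groups did not overlap in 10 windows that were lower (14.5%) and 3 that were higher (4.35%). All 13 windows that lay wholly in spacers had a log2 change below 0, from -0.66 to -0.06, while 28 of 52 windows wholly in rRNA genes did. The called window held the last 58 positions, 6801 to 6858 (XII:460712-460769), after T1. It had 5.99, 7.01 and 8.25 CPM with MnCl2 and 4.55, 4.10 and 3.65 CPM with DNase I (log2 change -0.66 ± 0.13, SE, limma adjusted p-value 0.0341). It rested on 17, 29 and 39 reads against 16, 18 and 18 reads. The fit did not use read counts and no count model was run for windows, so the SE may understate counting error. The window was not called without MnCl2 replicate 2 or without DNase I replicate 2 or 3, nor under median-ratio scaling. With windows of 50 positions, the 1 called window was another one, which began at position 6651.
T1 and the Reb1/Nsi1 site in capitals, positions 6727 to 6772 (XII:460798-460843): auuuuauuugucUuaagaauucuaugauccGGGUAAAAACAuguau
All 119 positions after T1 together had 38, 63 and 77 reads with MnCl2 and 41, 45 and 41 reads with DNase I, or 13.4, 15.2 and 16.3 CPM against 11.7, 10.3 and 8.31 CPM. Occupancy after T1 was 289 to 344 CPM in untreated libraries, which were outside the comparison and are given without a test.

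**Figure D5:**
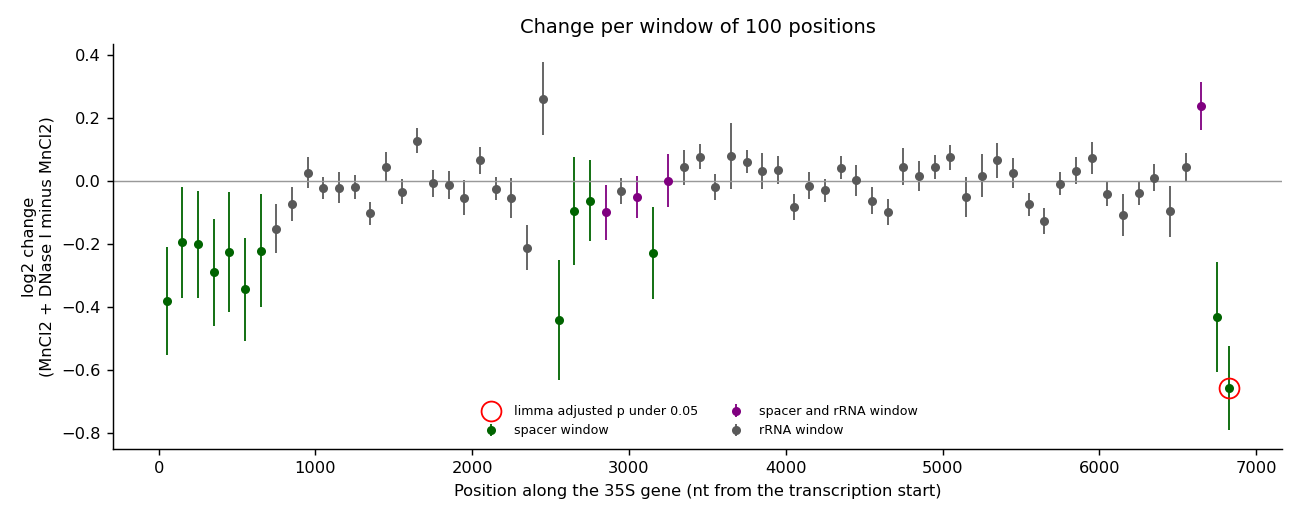
The log2 change (MnCl2 + DNase I minus MnCl2) ± SE of each of 69 windows against its position along the gene in nucleotides from the transcription start, coloured by whether the window lies in a spacer, in an rRNA gene or in both. Spacer windows lie below 0 throughout, the window at the end of 18S (0.26) and that at the end of 25S (0.24) lie highest, and the circled window after T1 (-0.66) lies lowest.

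Whether DNase I on MnCl2 acted as MNase on CaCl2 did was tested by the difference between the effects of the nucleases in each window (limma interaction over 12 libraries). None of 69 windows passed (0 at an adjusted p-value under 0.05, and 8 at an unadjusted p-value under 0.05). The fit pooled the spread of all 12 libraries, and the CaCl2 libraries differed widely among themselves in ETS2. The lack of a passing window therefore does not show that the nucleases acted alike. The incubations also differed in cation, temperature and time, so a difference between the nucleases could not be told apart from these. In ETS2, the share was 0.278% to 0.728% with CaCl2 and 0.597% to 0.648% with CaCl2 + MNase, with overlap, where DNase I libraries lay below all MnCl2 libraries.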

How the data were processed

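NET-seq libraries of 15 lysates were deposited, and 6 of them form the comparison. Per the labels and the study's methods, the authors removed duplicate reads by their molecular identifier, trimmed adapters with cutadapt 3.4 and aligned reads to the yeast genome with STAR 2.7.1a. The deposited CPM values are reads at a position scaled to a fixed total over the 35S gene up to T1. Whole reads were recovered from these CPM steps: 99.96% to 99.99% of values came within 0.02 of a whole read. The deposited tables also hold the authors' ratios and p-values, which were not used.

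Positions above 0 in at least 3 of 6 libraries were fitted on log2(CPM + 1) with limma 3.58.1 (R 4.3.3; lmFit, eBayes with trend), and windows of 100 positions likewise. Fold changes on this scale understate those of low positions. Adjustment was by Benjamini-Hochberg. Shares were compared by exact permutation over 20 assignments. The alternatives were pseudocounts, filters, scalings, a replicate block, edgeR 4.0.16 on the recovered reads and leaving out each library. Reads share PCR, so depth limits cover counting error only.

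Positions were named where called (16), where highest in MnCl2 libraries in a region, or where the change without overlap was largest in a spacer with a mean of at least 10 CPM. Positions, stretches and tests were chosen with earlier results of these data known.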

Additional observations from a re-analysis of the deposited data

How the results depend on the processing

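Of the calls per position (16 in the comparison as reported), 7 were left with a pseudocount of 5 CPM, 0 without a filter on low values (1272 at an unadjusted p-value under 0.05), 0 with all 15 libraries in 1 limma fit (717) and 0 without an intensity trend (1148). Spacer-sum scaling gave 5, edgeR on recovered reads 51, and leaving out 1 library 2 to 218. The 1 called window was lost with all 15 libraries, with median-ratio scaling and with scaling without the mature 3′ ends (0 each), and leaving out 1 library gave 0 to 5. Whether equal replicate numbers share a lysate is not known. Correlations of same-numbered deviations were weak (0.04, 0.09 and 0.10), but every library correlated best with its own number. The main fit did not take the numbers as pairs, and this check gives no ground for leaving pairing out. With a replicate block 4 positions and 0 windows were called.

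Relative to the spacer sum, log2 differences turned to 0.0844 in ETS1, 0.0310 in ITS1, 0.0118 in ITS2, 0.0911 in ETS1 positions 1 to 350, 0.0767 in 351 to 700, 0.16 before 18S, 0.0597 before 5.8S, 0.0006 after 25S and 0.27 in the Rnt1 stretch. The log2 change was 0.0971 at position 107 and 0.0619 at position 6650. Without positions near rRNA ends, the 20 positions before the Rnt1 stretch turned to -1.29, the mean position to -0.29 in ITS1 and 5.8 in ETS2, and the share ending in C to -0.89 points. Leaving out 1 library turned differences that lay near 0: 18S -0.0162 to 0.0069, 5.8S -0.0540 to 0.0388, 25S -0.0011 to 0.0211, before 18S -0.45 to 0.16, the Rnt1 stretch -0.21 to 0.0143, the mean position in ETS1 -0.59 to 1.29, the share ending in A -0.0185 to 1.16 points and in G -0.49 to 0.50 points, and position 107 -0.49 to 0.19. The causes were not tested. Depth limits the 119 positions after T1, which held 38 to 77 reads per MnCl2 library and 41 to 45 per DNase I library.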

Other observations

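Position 6411 in 25S, one of the highest positions, was picked after its values were seen. It had 4403, 8140 and 5996 CPM with MnCl2 and 2535, 6261 and 4364 CPM with DNase I. The groups overlapped (log2 change -0.54, limma adjusted p-value 0.293). In each group replicate 1 was the lowest and replicate 2 the highest library, and with each number the DNase I library lay below the MnCl2 library.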
